A study of Mus musculus with 32 samples.

Results

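Skeletal muscle removes contractile and signalling proteins through ubiquitin ligases, of which MuRF1 (Trim63) and atrogin-1 (Fbxo32) are the usual markers of atrophy. The 10 genes followed here encode other ligases known from muscle: Trim54, Trim55, Trim32, Fbxo30, Fbxo21, Fbxo31, Fbxo40, Nedd4, Traf6 and Cblb. They were picked by name and were all found among the 33397 genes with a value, and all 10 passed the filter on low values. Trim63 and Fbxo32 are given for comparison only. RNA was sequenced from the gastrocnemius (GAS) of the calf in young adult male C57BL/6 mice whose sciatic nerve had been cut, on 8 occasions with 4 samples each, early (0, 1 and 3 d), midway (5 and 7 d) and late (14, 21 and 28 d), 32 in all. The 0 d samples served as the sham (nondenervated) group of the study, although their labels list the same transection as the other groups. The 4 columns of values taken as 0 d carry no day in their names (C, where all others have D and a day) and were assigned to 0 d because it was the only time point without columns of its own, so every comparison with 0 d rests on that inference. All groups were wild type. The label of the extraction step names retina, but the 8 skeletal muscle markers (Acta1, Ckm and others) summed to 24501 to 44845 FPKM in every sample and the 7 retinal markers found to at most 0.528 FPKM.

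A ubiquitin ligase chooses the protein to be marked and brings about the transfer of ubiquitin to it from an E2 enzyme. The marked protein is then usually degraded by the proteasome. TRIM proteins carry a RING domain and act as single chains or as dimers, whereas F-box proteins are the interchangeable substrate adaptors of the SCF complex, built on the scaffold Cul1, the linker Skp1 and the RING protein Rbx1. In atrophying muscle, FoxO transcription factors and, after denervation, myogenin (Myog) are known activators of such genes.

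FPKM corrects fragments for exon length and sequencing depth, so levels can be set side by side between genes. The samples held 14199898 to 17561590 fragments, recovered from the FPKM values, and no member value rested on fewer than 132 fragments. Mitochondrial genes took 14.5% to 18.2% of fragments at 0 d and as little as 6.70% at 7 d. Other genes had higher FPKM on the later days: over the 11943 genes whose mean FPKM reached 1, the median log2 fold change was 0.12 on 1 d, 0.20 on 3 d and 0.24 to 0.32 from 5 d onwards. Leaving mitochondrial genes out of the total took away part of the shift, the median of the 10 members at 28 d being 0.25 as deposited, 0.15 without those genes and -0.09 after median-ratio scaling. Changes are therefore given as deposited and, in parallel, after median-ratio scaling, which brings the median over the 11943 genes to within 0.03 of 0. One 3 d sample (replicate 1) stood apart, with a median r of 0.965 to its own group against at least 0.978 in all other samples. A gene was said to rise or fall when limma gave a Benjamini-Hochberg adjusted p under 0.05 over all 22071 genes tested and a change of at least 1.5-fold on the log2(FPKM + 1) scale, a scale that understates changes of low genes. All 7 comparisons share the 0 d samples. The p-values measure the spread between these samples, and in whole muscle fewer cells of a type and less RNA per cell cannot be told apart.

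Upstream sequences were available for 9 of the 10 members and for Trim63 (RefSeq, GRCm38.p6, the 250 bases before each start, 5′ to 3′ on the gene's strand). The short motifs searched on both strands were the FoxO core GTAAACA, held by 3.166% of all 32851 such windows, the E-box CAGCTG, held by 13% of them, and the MEF2 box (CTA, then 4 bases of any kind, then TAG), held by 3.202%. Shown here are Trim63 and Fbxo31, which shared high early levels, and the muscle-restricted Fbxo40, with matches in capitals.
Trim63 (chr4:134314870-134315119, plus strand): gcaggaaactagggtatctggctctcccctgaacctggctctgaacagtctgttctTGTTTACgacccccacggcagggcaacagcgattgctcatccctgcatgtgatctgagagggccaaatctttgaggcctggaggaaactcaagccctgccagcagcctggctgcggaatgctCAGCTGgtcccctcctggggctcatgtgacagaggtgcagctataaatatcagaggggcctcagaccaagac
Fbxo31 (chr8:121578807-121579056, minus strand): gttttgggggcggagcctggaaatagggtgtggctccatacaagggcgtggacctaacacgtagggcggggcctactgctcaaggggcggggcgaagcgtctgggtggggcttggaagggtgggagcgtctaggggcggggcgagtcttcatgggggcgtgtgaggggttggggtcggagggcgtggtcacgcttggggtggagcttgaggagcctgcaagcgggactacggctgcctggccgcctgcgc
Fbxo40 (chr16:36990468-36990717, minus strand): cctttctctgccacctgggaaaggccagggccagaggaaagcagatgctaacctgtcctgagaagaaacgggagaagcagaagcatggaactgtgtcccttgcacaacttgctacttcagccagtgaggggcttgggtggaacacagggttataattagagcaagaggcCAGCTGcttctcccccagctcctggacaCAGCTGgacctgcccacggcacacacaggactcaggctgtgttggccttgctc
The Trim63 window held a FoxO core at positions -194 to -188 from the start and an E-box at -72 to -67. The Fbxo31 window held none of the motifs, and the Fbxo40 window held a pair of E-boxes, at -81 to -76 and -53 to -48. Among the other members, single E-boxes lay upstream of Trim54 (-113 to -108) and Trim32 (-107 to -102), in the window before a second start of Fbxo40 (-89 to -84) and in that before a second start of Nedd4 (-139 to -134). No match lay in the windows of Fbxo30, Fbxo21, Traf6, Cblb or the first start of Nedd4. The starts are those of RefSeq. For Trim54, Traf6 and both starts of Nedd4, bases just after the start were not found in a GENCODE transcript of the gene. The windows of Fbxo30 and Cblb lie inside the gene spans given below. A match is a description of the sequence, and binding was not measured.

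**Figure D1:**
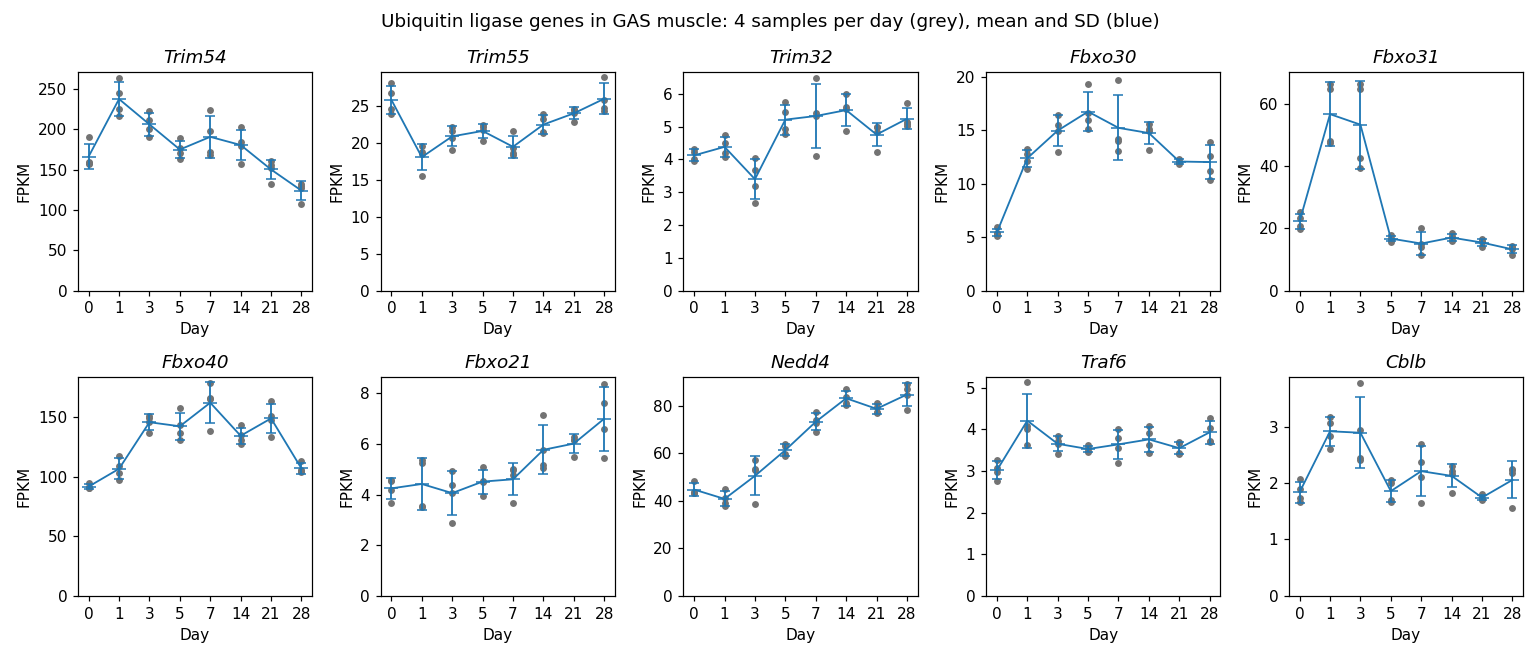
FPKM of each of the 10 ligase genes (vertical axes, FPKM, starting at 0) against day after nerve transection (horizontal axes, equally spaced). Grey points are the 4 samples of each day and blue lines the mean and SD. Fbxo30 stayed above its 0 d level on all 7 later days, Fbxo31 was high at 1 and 3 d only, and Nedd4 was highest at 28 d.

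Among the F-box genes, Fbxo30 had the most lasting change. It lies at chr10:11281330-11298052 (GRCm38, plus strand) and encodes MUSA1, the F-box protein whose gene is held down by BMP signalling in innervated muscle. The 4 samples at 0 d had 5.12, 5.33, 5.37 and 5.95 FPKM. At 1 d they had 11.4, 12.1, 12.8 and 13.2 FPKM, and at 5 d 15.1, 15.95, 16.6 and 19.4 FPKM. No sample of 1 or 5 d came near the range of 0 d. The mean rose from 5.44 ± 0.356 FPKM at 0 d (SD, n = 4) to 12.4 ± 0.786 at 1 d and 16.8 ± 1.84 at 5 d, a ratio of means of 3.08. The log2 fold change was 1.06 ± 0.10 at 1 d (SE, limma adjusted p = 1.11e-09) and 1.46 ± 0.10 at 5 d (adjusted p = 5.25e-13). At 28 d the samples still had 10.3, 11.2, 12.6 and 13.9 FPKM, all above the 0 d samples, with a log2 fold change of 1.01 ± 0.10 (adjusted p = 9.81e-10). Fbxo30 was the only member that rose on all 7 days, and it did so after median-ratio scaling too, with log2 fold changes of 0.68 at 28 d to 1.12 at 5 d. From 1 to 28 d the order of its levels was resolved only in part. No pair of neighbours in that order differed, the smallest adjusted p being 0.0590 for 14 d against 1 d, but the ends, 5 d and 28 d, differed by 0.45 ± 0.10 on the log2 scale (SE, limma adjusted p = 0.0011).

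Fbxo31 had the sharpest course. This gene (chr8:121549440-121578806, minus strand) encodes an F-box protein known for directing cyclin D1 to the proteasome. Samples at 0 d had 19.7, 20.8, 23.3 and 25.2 FPKM. The 1 d samples had 47.5, 48.1, 64.7 and 66.4 FPKM, and the 3 d samples 39.5, 42.7, 64.7 and 66.3 FPKM. All 8 of these early samples lay above the 0 d group, although on each day a pair of samples lay well above the other pair. Against 0 d, Fbxo31 rose by a log2 fold change of 1.299 ± 0.15 at 1 d (SE, limma adjusted p = 4.77e-08) and 1.19 ± 0.15 at 3 d (adjusted p = 8.38e-08), or 1.08 at 3 d without the sample that stood apart. By 5 d the samples had 15.7, 16.4, 16.9 and 17.9 FPKM, all below the 0 d group. The fall from 3 d to 5 d, by 1.58 ± 0.15 on the log2 scale (adjusted p = 4.44e-09), was the only change of any of the 10 members between neighbouring days that passed the test, where 2.05% of all genes were lower at that step.

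After 5 d Fbxo31 stayed under its starting level. The 28 d samples had 11.4, 13.5, 13.9 and 14.3 FPKM, and the fall against 0 d was by 0.71 ± 0.15 on the log2 scale (limma adjusted p = 0.000208), or by 0.56, short of 1.5-fold, in TPM. On 5, 7, 14 and 21 d the log2 fold changes of -0.39, -0.55, -0.36 and -0.50 had adjusted p-values from 0.00272 to 0.0433 but did not reach 1.5-fold. At 7 d, where the samples spread from 11.5 to 19.98 FPKM and overlapped those of 0 d, the change reached 1.5-fold without 7 d replicate 2 (-0.68) or without 0 d replicate 1 (-0.60). After median-ratio scaling Fbxo31 was lower and passed the test on every day from 5 d, with log2 fold changes of -0.76, -0.91, -0.74, -0.79 and -1.07. Its highest mean, at 1 d, was 4.28 times its lowest, at 28 d, the widest range of the 10 genes.

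Fbxo40, a muscle-restricted F-box protein that marks the insulin receptor substrate Irs1, was among the most abundant members. The gene lies at chr16:36963460-36990467 (minus strand). At 0 d its samples had 90.4, 90.7, 91.6 and 94.7 FPKM, a narrow range. They had 136.6, 146.1, 149.7 and 151.2 FPKM at 3 d and 138.5, 165.6, 166.2 and 178.9 FPKM at 7 d, without overlap with 0 d. Fbxo40 rose by log2 fold changes of 0.66 ± 0.07 at 3 d (SE, limma adjusted p = 6.74e-09), 0.63 at 5 d, 0.81 ± 0.07 at 7 d (adjusted p = 1.44e-10) and 0.69 at 21 d. The rise at 5 d fell short of 1.5-fold without 5 d replicate 2 (0.58). At 28 d the samples were back to 104.1, 104.7, 105.8 and 113.5 FPKM, still above each 0 d sample, with a log2 fold change of 0.22. None of these rises reached 1.5-fold after median-ratio scaling, where the values on 3, 5, 7 and 21 d were 0.43, 0.24, 0.43 and 0.39 and the 28 d value was -0.16.

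Fbxo21 changed late. Its product, SMART, is an F-box protein that has been placed downstream of FoxO in atrophying muscle, and the gene lies at chr5:117976730-118010201 (plus strand). Samples at 0 d had 3.67, 4.19, 4.56 and 4.58 FPKM. From 1 to 7 d all 4 groups overlapped with 0 d, and the adjusted p was at least 0.611. The 14 d samples (5.04, 5.16, 5.75 and 7.14 FPKM) and the 28 d samples (5.45, 6.58, 7.60 and 8.37 FPKM) all lay above the 0 d group. Only at 28 d did Fbxo21 pass the test, with a log2 fold change of 0.60 ± 0.13 (SE, limma adjusted p = 0.00045). That call was lost without 0 d replicate 4 (0.54), 28 d replicate 1 (0.56) or 28 d replicate 2 (0.52), and after median-ratio scaling the change was 0.28.

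Trim54 and Trim55 encode MuRF3 and MuRF2, the paralogs of MuRF1 that bind microtubules and sarcomeric proteins. Trim54 (chr5:31116712-31137630, plus strand) had the highest level of the 10 members on every day. At 0 d its samples had 157.4, 158.1, 159.7 and 190.1 FPKM, and at 1 d 216.9, 225.3, 244.9 and 263.5 FPKM, above all samples of 0 d. The log2 fold change at 1 d was 0.51 ± 0.09 (SE, limma adjusted p = 7.73e-05), short of 1.5-fold. At 28 d the samples had 106.9, 127.8, 129.8 and 131.8 FPKM, all below the 0 d group, with a log2 fold change of -0.42 ± 0.09 (adjusted p = 0.000451). That late difference passed 1.5-fold after median-ratio scaling (-0.80, adjusted p = 4.18e-07). From its highest mean at 1 d to its lowest at 28 d, Trim54 differed by 0.93 ± 0.09 on the log2 scale (adjusted p = 2.77e-09). An antisense gene, Gm15469, shares 382 exon bases with Trim54 and had a mean FPKM of 0.757, and its reads could not be separated without strand.

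Trim55 (chr3:19644474-19692421, plus strand) ran the other way at first. Its samples had 23.9, 24.6, 26.8 and 28.1 FPKM at 0 d but 15.5, 18.6, 18.7 and 19.6 FPKM at 1 d, all below the 0 d group. They had 18.4, 18.7, 19.3 and 21.6 FPKM at 7 d and were back at 24.4, 24.8, 25.8 and 29.0 FPKM at 28 d, where they overlapped with 0 d. The log2 fold changes were -0.49 ± 0.07 at 1 d (SE, limma adjusted p = 1.4e-06), -0.39 ± 0.07 at 7 d (adjusted p = 2.3e-05) and 0.01 ± 0.07 at 28 d (adjusted p = 0.956), none of them 1.5-fold as deposited. After median-ratio scaling Trim55 was called lower at 1 d (-0.68), 5 d (-0.62) and 7 d (-0.76), and the 28 d value became -0.36 (adjusted p = 0.00141).

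Trim32, a ligase for desmin and thin filament proteins that is mutated in a limb-girdle muscular dystrophy, lies at chr4:65604986-65616238 (plus strand). Its samples had 3.94, 4.00, 4.24 and 4.31 FPKM at 0 d, 2.67 to 4.05 FPKM at 3 d and 4.86 to 6.01 FPKM at 14 d. The 14 d samples lay above the 0 d group, while those of 3 d overlapped with it. Its log2 fold changes, -0.23 ± 0.09 at 3 d (SE, limma adjusted p = 0.0466) and 0.34 ± 0.09 at 14 d (adjusted p = 0.00317), did not reach 1.5-fold, and after median-ratio scaling they were -0.43 and 0.01. The lowest 3 d value belonged to the sample that stood apart, and without it the 3 d difference was -0.15 (adjusted p = 0.213).

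Nedd4 is a HECT ligase, which takes ubiquitin onto itself before passing it to membrane proteins and receptors. It lies at chr9:72662346-72749852 (plus strand). Samples at 0 d had 43.2, 43.4, 43.8 and 48.6 FPKM and samples at 1 d 37.7, 39.1, 41.3 and 45.0 FPKM, which overlapped. The 7 d samples had 68.9, 72.8, 74.0 and 77.4 FPKM, and the 28 d samples 78.2, 84.5, 87.1 and 89.1 FPKM. Every sample from 5 d onwards lay above the 0 d group. Nedd4 rose by log2 fold changes of 0.70 ± 0.08 at 7 d (SE, limma adjusted p = 1.42e-08), 0.88 at 14 d, 0.80 at 21 d and 0.91 ± 0.08 at 28 d (adjusted p = 1.03e-10), to 1.89 times its 0 d mean. After median-ratio scaling these were 0.33, 0.49, 0.50 and 0.53, with adjusted p-values of 7.5e-06 at 7 d and 1.73e-09 at 28 d, and none was 1.5-fold. At 3 d, 3 samples had 52.9, 53.5 and 57.1 FPKM and the sample that stood apart 38.5 FPKM. The log2 fold change there was 0.16 (adjusted p = 0.108) with that sample and 0.28 (adjusted p = 0.000174) without it. Median-ratio scaling gave Nedd4 -0.07 at 3 d with all 4 samples (limma adjusted p = 0.279) and -0.32 at 1 d (adjusted p = 2.17e-05).

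Traf6 and Cblb are signalling ligases and had the lowest means of the 10 on each day other than 3 d, when Trim32 lay between them. Traf6 (chr2:101678429-101701669, plus strand) builds the ubiquitin chains through which receptors activate NF-κB. Its samples had 2.76, 2.97, 3.08 and 3.27 FPKM at 0 d and 3.62, 4.02, 4.07 and 5.14 FPKM at 1 d, without overlap. The log2 fold change at 1 d was 0.37 ± 0.07 (SE, limma adjusted p = 0.000128), the highest of its 7 values and short of 1.5-fold. Median-ratio scaling gave 0.23 for Traf6 on that day. From 5 d on its log2 fold changes were 0.17 to 0.30 as deposited and between -0.13 and 0 after median-ratio scaling. Cblb (chr16:52031225-52208048, plus strand), known for marking Irs1 in unloaded muscle, had 1.66, 1.73, 1.89 and 2.08 FPKM at 0 d. It had 2.60, 2.84, 3.06 and 3.17 FPKM at 1 d and 2.41, 2.45, 2.94 and 3.77 FPKM at 3 d, above the 0 d group on both days. By 5 d the samples, at 1.67 to 2.06 FPKM, overlapped with 0 d again. The log2 fold changes of Cblb were 0.46 ± 0.10 at 1 d (limma adjusted p = 0.000575) and 0.44 ± 0.10 at 3 d (adjusted p = 0.000562). With a pseudocount of 0.1 in place of 1 they became 0.64 and 0.61 and passed 1.5-fold. They were short of it after median-ratio scaling (0.35 and 0.29) and with limma-voom on recovered fragments (0.49 and 0.40).

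**Figure D2:**
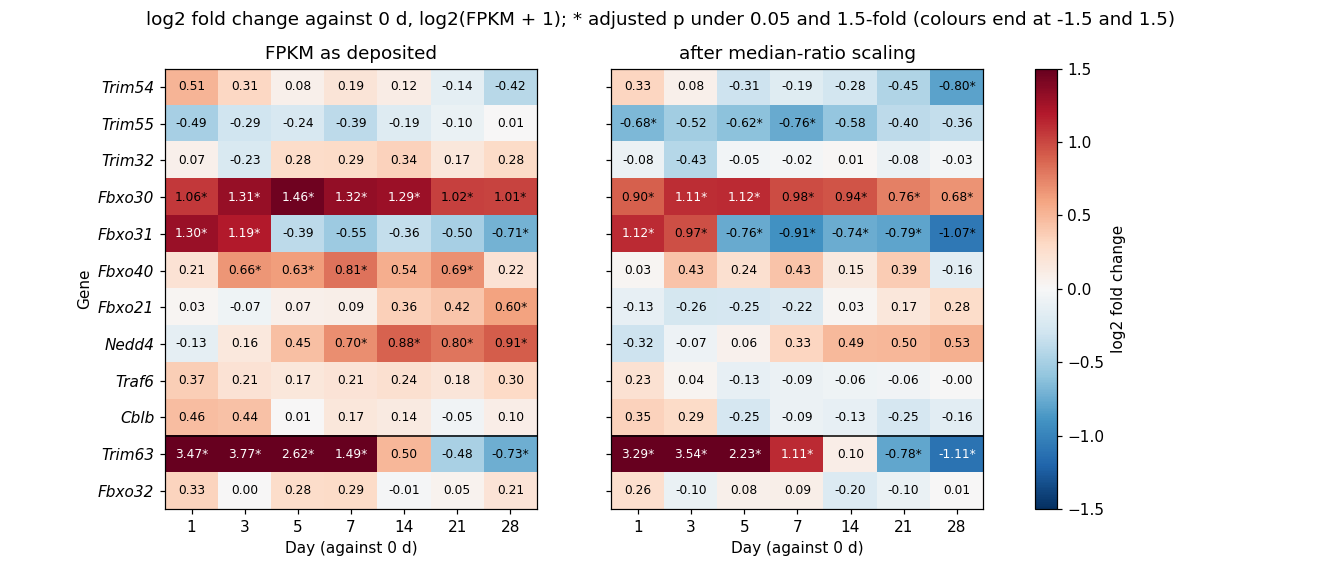
Log2 fold change against 0 d, on the log2(FPKM + 1) scale, of the 10 members and of Trim63 and Fbxo32 (rows) on 7 days (columns), as deposited on the left and after median-ratio scaling on the right. Colours end at -1.5 and 1.5, and an asterisk marks an adjusted p under 0.05 with at least 1.5-fold. Fbxo30 was called higher on every day in both panels, while the calls for Fbxo40, Nedd4 and Fbxo21 stood on the left only.

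Counted by day, 2 of the 10 members rose at 1 d (Fbxo30 and Fbxo31), against 6.34% of all genes tested, and 3 at 3 d (Fbxo30, Fbxo31 and Fbxo40), against 13.2%. There were 2 at 5 d (Fbxo30 and Fbxo40, background 14.9%), 3 at 7 d (Fbxo30, Fbxo40 and Nedd4, 15.4%), 2 at 14 d (Fbxo30 and Nedd4, 14.6%), 3 at 21 d (Fbxo30, Fbxo40 and Nedd4, 11.8%) and 3 at 28 d (Fbxo21, Fbxo30 and Nedd4, 14.2%). The only member to fall was Fbxo31 at 28 d, against 4.1% of all genes; on 1, 3, 5, 7, 14 and 21 d, when no member fell, this background was 2.49%, 6.03%, 3.86%, 4.1%, 3.83% and 3.93%. After median-ratio scaling the rises were Fbxo30 and Fbxo31 at 1 d (background 4.14%) and 3 d (9.01%) and Fbxo30 alone on 5, 7, 14, 21 and 28 d (6.7%, 7.15%, 6.58%, 6.44% and 6.58%). On that scale 1 member fell at 1, 14 and 21 d (backgrounds 4.68%, 7.54% and 7.16%), 2 at 5, 7 and 28 d (7.69%, 7.92% and 8.11%) and none at 3 d (9.16%). At an adjusted p under 0.05 with no fold threshold, 6 members were higher at 1 d and at 3 d (backgrounds 20.4% and 29%), 5 at 5 and 7 d (36.1% and 37.1%), 6 at 14 d (38%), 5 at 21 d (31.7%) and 6 at 28 d (37.8%). Under the same rule 1 was lower at 1 and 21 d (9.01% and 10.1%) and 2 at 3, 5, 7, 14 and 28 d (14.3%, 9.52%, 10.1%, 9.25% and 9.85%). The median log2 fold change of the 10 members was 0.26 at 3 d, where that of all 22071 genes was 0.06 and that of the 11943 genes with a mean of 1 FPKM or more was 0.20. At 28 d it was 0.25, above the 0.14 of all genes and below the 0.30 of that subset, to which all 10 members belong. After median-ratio scaling the members' medians were 0.06 and -0.09.

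The study itself compared atrophied muscle at 14, 21 and 28 d with the sham group. For that comparison a change was counted here at an unadjusted p under 0.05 and 1.5-fold. By that rule, with 12 samples against 4, Fbxo30 (log2 fold change 1.11 ± 0.09, limma adjusted p = 4.25e-09) and Nedd4 (0.86 ± 0.05, adjusted p = 3.41e-11) rose, where 14.6% of 20243 genes did. No member fell, against 4.27%. Median-ratio scaling kept the rise of Fbxo30 (0.79) but left Nedd4 (0.51) short of 1.5-fold. The samples of Fbxo31 again lay wholly below the sham group, with -0.52 ± 0.09 (adjusted p = 0.000117), and fell by 0.87 after median-ratio scaling. Fbxo40 (0.48) and Fbxo21 (0.46) lay wholly above it, short of 1.5-fold, and had 0.12 and 0.16 after median-ratio scaling.

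Ordering the 8 groups of each member by level gave 70 pairs of neighbours, of which 9 differed (limma adjusted p under 0.05), or 5 with no filter on low values or without 0 d replicate 2. For Fbxo31 the high days, 1 and 3 d, were set apart from 0 d, and 0 d from 14 d. For Nedd4 the only break lay between 5 d and 3 d (limma adjusted p = 0.00632), and from 5 to 28 d no neighbours could be told apart. The ends of that run, 28 d and 5 d, still differed by 0.46 ± 0.08 on the log2 scale (SE, limma adjusted p = 6.33e-05). Median-ratio scaling did set 7 d apart from 5 d (0.26, limma adjusted p = 0.00527), but not 5 d from 3 d (0.14, adjusted p = 0.0601). Fbxo40 broke between 14 d and 28 d (adjusted p = 0.00624) and between 1 d and 0 d, and Fbxo30 only between 28 d and 0 d. Trim54, Trim55 and Fbxo21 had no break between neighbours, although their highest and lowest days differed.

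Against this background Trim63 changed on another scale. Its 0 d samples had 76.1, 86.6, 95.6 and 107.3 FPKM, and its 3 d samples 1114, 1168, 1184 and 1590 FPKM. The mean rose 13.8 times by 3 d and was under its 0 d level at 28 d, with 54.4 ± 5.42 FPKM (SD, n = 4). The 10 members together summed to 370 ± 24.7 FPKM at 0 d and 506 ± 17.4 FPKM at 3 d. Trim63 alone was thus 0.247 times the sum of the other 10 genes at 0 d, 2.49 times at 3 d and 0.141 times at 28 d.

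The log2 ratio of each member to Trim63 was compared with 0 d by exact two-sided permutation tests, for which 4 against 4 samples allow no p under 0.0286, with adjustment over 40 tests. Trim63 itself rose by 3.77 on the log2 scale at 3 d, against a median of 0.20 over genes with a mean of 1 FPKM or more. The ratio falls for any gene that rose less than Trim63, and the share of all genes with a lower ratio was not computed. At 3 d the ratio was lower for all 10 members (exact permutation adjusted p = 0.0394 for each), from -2.46 for Fbxo30 and -2.58 for Fbxo31 to -4.07 for Trim55. The highest 3 d value of Trim63 came from the sample that stood apart, and without it the differences ran from -2.35 to -3.97. By 28 d Trim63 had changed by -0.73, against a median of 0.30 over the same genes. The ratio was then higher for 8 of the 10 members, most for Fbxo30 (1.74) and Nedd4 (1.64). For Fbxo31 the difference was 0.03 (exact permutation, adjusted p = 0.834), with a log2 ratio of -1.96 ± 0.101 at 28 d and -1.99 ± 0.217 at 0 d (SD, n = 4). For Trim54 it was 0.31 (exact permutation, adjusted p = 0.0762).

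Fbxo32 was low throughout. Fbxo32 samples had 0.791, 0.807, 0.894 and 1.14 FPKM at 0 d and 0.480, 0.889, 1.04 and 1.32 FPKM at 3 d, and the 2 groups overlapped. An antisense gene, Gm15943, shares 186 exon bases with Fbxo32 and had a mean FPKM of 0.00053. Fbxo32 passed the test on no day (limma adjusted p at least 0.25), with 56 or more fragments in every sample. Ratios to Fbxo32 therefore followed the members: at 3 d they were higher for Fbxo30 (1.304), Fbxo31 (1.19), Fbxo40 (0.66), Cblb (0.44) and Trim54 (0.31) and lower for Trim55 (-0.30), each with an exact permutation adjusted p of 0.0394. With a pseudocount of 0.1 the differences for Trim54, Trim55 and Cblb were 0.34, -0.28 and 0.63 and no longer passed (exact permutation adjusted p = 0.197, 0.419 and 0.0879). At 28 d the ratios were higher for Fbxo30 (0.80), Nedd4 (0.70) and Fbxo21 (0.39) and lower for Fbxo31 (-0.91) and Trim54 (-0.63), with the same adjusted p of 0.0394 by exact permutation, and with a pseudocount of 0.1 the calls for Fbxo31 and Trim54 alone were left.

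**Figure D3:**
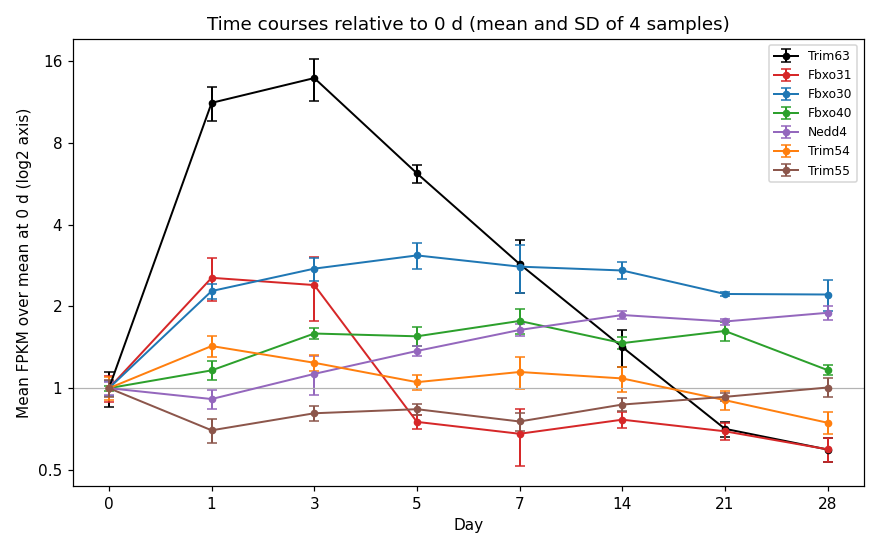
Mean FPKM of 6 members and of Trim63 divided by the gene's mean at 0 d (vertical axis, log2 scale) against day (equally spaced), with the SD of 4 samples as bars. Trim63 reached 13.8 times its 0 d mean at 3 d, Fbxo31 2.55 times at 1 d and Fbxo30 3.08 times at 5 d, and Nedd4 ended at 1.89 times.

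The genes whose course was most like that of a member were ranked by Pearson's r of log2(FPKM + 1) over the 32 samples among 11943 genes. These coefficients describe points that share time points and sample totals. Fbxo31 ran closest to Acot2 (0.964), an acyl-CoA thioesterase, Lpin1 (0.961), a phosphatidate phosphatase and coactivator, and Tango2 (0.957), and Fbxo30 to Trp63 (0.954), Nat10 (0.952) and Dync1h1 (0.950). Nedd4 ran closest to Maged1 (0.980), Tmem64 (0.976) and Gm47523 (0.974). For Fbxo40 the nearest were Klhl40 (0.875), Jup (0.860) and Alkbh3 (0.854), with 0.762, 0.623 and 0.769 after median-ratio scaling.
For the remaining members the nearest genes were Mlxip (0.886), Whamm (0.885) and Zfand3 (0.879) for Trim54, Ppp1r14c (0.821), Itgb6 (0.800) and Bhlhe41 (0.780) for Trim55, and Asah2 (0.924), Wdr6 (0.903) and Ggcx (0.872) for Trim32. Fbxo21 was nearest to Pard3b (0.882), Xxylt1 (0.877) and Psen2 (0.877), Traf6 to Nipbl (0.851), Setd2 (0.822) and Kat7 (0.810), and Cblb to Galnt15 (0.874), Amotl2 (0.869) and Crebbp (0.862). Among the members themselves, Fbxo31 was most like Cblb (0.794), and Fbxo31 and Nedd4 ran in opposite directions (-0.775), as they did after median-ratio scaling (0.902 and -0.845).

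Of the SCF core, the machinery that the F-box members need, 3 of 8 genes rose at 3 d and none fell, where 13.2% of all genes rose and 6.03% fell. The list's median log2 fold change was 0.46 (all genes 0.06, those with a mean of 1 FPKM or more 0.20), and 0.25 after median-ratio scaling. They included Cops5, the subunit of the COP9 signalosome that removes Nedd8 from cullins, which rose from 38.3 to 44.5 FPKM at 0 d to 73.5 to 100.5 FPKM (log2 fold change 0.95), and Cul1, which rose from 26.7 to 27.9 FPKM to 48.0 to 64.4 FPKM (0.93). Both passed the test after median-ratio scaling as well. At 28 d Cul1 (0.62) and Cand1 (0.65), which exchanges the F-box proteins on Cul1, rose as deposited but not after median-ratio scaling (0.24 and 0.36).

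Of 41 other muscle ligases tested, 10 rose and 7 fell at 3 d, and 5 rose and 10 fell at 28 d, where 13.2% and 6.03% of all genes did at 3 d and 14.2% and 4.1% at 28 d. Their median log2 fold change was 0.13 at 3 d and 0.08 at 28 d, against 0.06 and 0.14 over all genes and 0.20 and 0.30 over those with a mean of 1 FPKM or more. After median-ratio scaling these medians of the list were -0.09 and -0.22, and the counts were 6 and 9 at 3 d (all genes 9.01% and 9.16%) and 2 and 14 at 28 d (6.58% and 8.11%). Klhl40, a Cul3 adaptor of the thin filament, rose at 3 d from 28.1 to 31.4 FPKM to 86.5 to 97.9 FPKM (log2 fold change 1.58), as did Ubr4 (1.35), which recognises N-terminal degrons. Asb18 fell from 7.66 to 9.08 FPKM to at most 0.587 FPKM at 3 d (-2.86) and Asb12 fell as well (-2.19). At 28 d Klhl41 (1.06) and Mdm2, the ligase of p53 (1.05), rose, and Asb11 fell from 48.5 to 64.5 FPKM to 4.91 to 7.75 FPKM (-3.00) and Asb2 from 161.1 to 212.5 FPKM to 20.7 to 29.8 FPKM (-2.89). Asb11 had risen at 1 d (0.98) and 3 d (0.89) and Asb2 at 1 d (0.74, or 0.56 and short of 1.5-fold after median-ratio scaling), while Klhl41 had fallen at 1 d (-0.73). The Asb proteins are substrate adaptors of Cul5 ligases.

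Among 21 E2 enzymes, 7 rose and 1 fell at 3 d, and 2 rose and 2 fell at 28 d, against 1 and 1 and then 0 and 5 after median-ratio scaling. Over all genes the shares were again 13.2% and 6.03% at 3 d and 14.2% and 4.1% at 28 d, or 9.01% and 9.16% and then 6.58% and 8.11% after median-ratio scaling. Their medians were 0.34 and 0.15 as deposited (all genes 0.06 and 0.14), and 0.11 and -0.19 after median-ratio scaling. Ube2o (log2 fold change 0.89) and Ube2g2 (0.78) rose at 3 d and Ube2d1 fell (-0.62). At 28 d Ube2g2 (0.95) and Ube2e2 (0.64) rose as deposited, and Ube2d1 (-1.15) and Ube2r2 (-1.03), an E2 known to work with SCF ligases, fell. The rises of Ube2g2 and Ube2e2 were short of 1.5-fold after median-ratio scaling, with 0.56 at 3 d and 0.57 at 28 d for Ube2g2 and 0.41 for Ube2e2. Of the 12 substrates and partners of the members, 4 rose at 3 d and none fell, and 4 rose and 2 fell at 28 d (3 and 2, and 1 and 2, after median-ratio scaling). Their medians were 0.26 and 0.25 as deposited and 0.06 and -0.09 after that scaling. The shares and medians over all genes given for the E2 enzymes are the background here too. Sqstm1, the p62 autophagy receptor that binds Traf6, rose from 206.7 to 225.5 FPKM to 521.1 to 757.5 FPKM at 3 d (1.58), and Jup, plakoglobin, rose on that day (1.39) and at 28 d (0.94, or 0.57 and short of 1.5-fold after median-ratio scaling), when Fhl2 rose too (1.87). Irs1, the shared target of Fbxo40 and Cblb, fell at 28 d from 3.51 to 6.28 FPKM to 1.91 to 2.58 FPKM (-0.80) after a rise at 1 d (1.06), and Tab2, which binds the chains made by Traf6, fell (-0.72).

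Of 11 upstream factors, 6 rose and 2 fell at 3 d, and 5 rose and 1 fell at 28 d (all genes 13.2% and 6.03%, then 14.2% and 4.1%), with medians of 0.61 and 0.48. After median-ratio scaling the medians were 0.40 and 0.19. On that scale 4 rose and 3 fell at 3 d (all genes 9.01% and 9.16%), and 3 rose and 2 fell at 28 d (6.58% and 8.11%). Myog had 1.61 to 2.59 FPKM at 0 d, 165.4 to 240.7 FPKM at 3 d (log2 fold change 6.18) and 109.0 to 131.4 FPKM at 28 d (5.36), and Myod1 rose as well (2.78 and 3.44). Dach2, known as a repressor of Myog, fell from 0.777 to 1.09 FPKM to at most 0.139 FPKM at 3 d (-0.77), and Foxo6 fell at 3 d (-1.36). Foxo1 rose on each day other than 21 d, with 1.198 at 1 d and 0.68 at 28 d, and after median-ratio scaling the 28 d value of 0.39 was short of 1.5-fold (1.07 at 1 d). Foxo3 passed the test at 1 d (1.11) and 3 d (0.77) only, and after median-ratio scaling at 1 d (0.96) but not at 3 d (0.58).

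**Figure D4:**
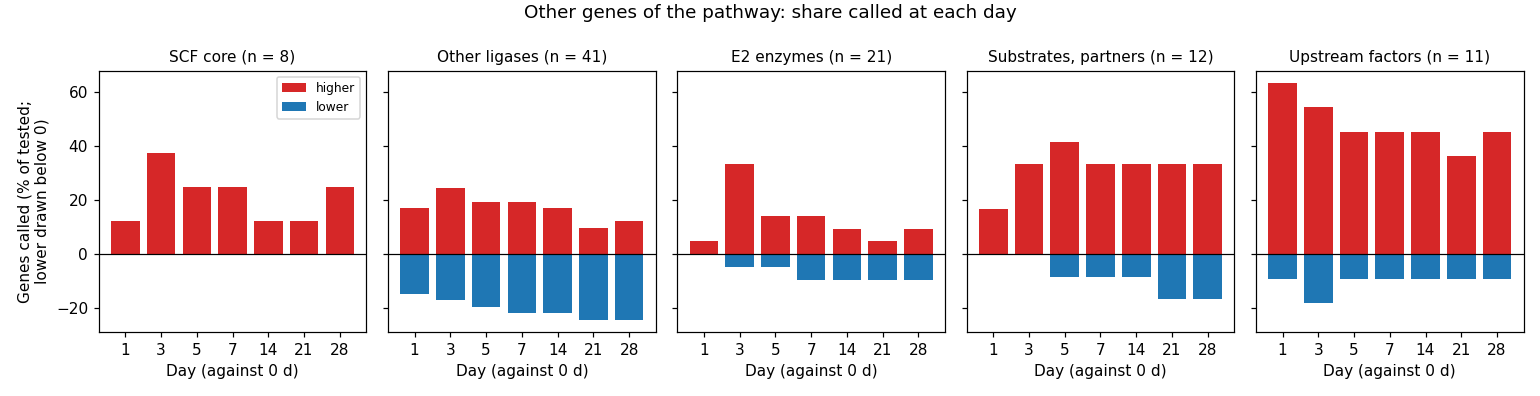
Share of each list of other genes of the pathway (vertical axis, percent of the genes tested in that list) that was called higher (red, above 0) or lower (blue, below 0) against 0 d on each day (equally spaced), on FPKM as deposited. In the list of 41 other ligases the lower share was largest at 21 and 28 d, with 10 genes.

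Marker genes of other cell types changed as well. All 7 macrophage markers rose from 3 d on, from a summed 67.4 to 96.7 FPKM at 0 d to 212.3 to 495.5 FPKM at 3 d and 213.8 to 243.8 FPKM at 28 d. The 6 Schwann cell markers summed to 76.4 to 169.2 FPKM at 0 d and to 9.58 to 24.7 FPKM at 3 d, and 3 of them fell. Of the 3 satellite cell markers 1 rose from 3 d on, and 3 of the 4 endothelial markers fell at 3 d (summed 77.2 to 88.5 FPKM at 0 d and 45.3 to 63.005 FPKM at 3 d). None of the 5 fibroblast markers passed the test at 3 d (387.7 to 515.1 FPKM at 0 d and 247.4 to 612.4 FPKM at 3 d). Later 3 of the fibroblast markers rose at 5 d, 2 at 7 d and 1 on each of 14, 21 and 28 d. Of the 7 markers of other leukocytes 2 rose from 1 d on, with sums of at most 2.53 FPKM at 0 d and 84.2 FPKM at 1 d. Of the 8 skeletal muscle markers 5 fell at 3 d, with sums of 41853 to 44845 FPKM at 0 d and 24501 to 28182 FPKM at 3 d. Their part in the changes of Fbxo30, Fbxo31 and the other members was not tested.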

How the data were processed

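RNA was sequenced from GAS muscle of 32 samples, 4 at each of 8 time points. The authors deposited FPKM values for 33397 genes; the labels' processing notes name HISAT2 2.1.0, CASAVA, DESeq2 and GRCm38, and the counting step is not given in the sources used here. Column names gave the time point except for 4 (C), which were taken as 0 d by elimination, and none named an individual sample, so the columns were used as 4 replicates of a group. Identifiers of 33356 genes matched GENCODE release 21, whose merged exon lengths returned the fragments, with 99.32% to 99.45% of values under 200 fragments whole to within 0.05, and 41 genes did not match. Samples of a day differed by more than sampling noise (chi-square per degree of freedom 3.76 to 60.4). No molecular identifiers were stated, so counting error is a lower limit.

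A gene was tested if 4 or more samples reached 0.1 FPKM. Linear models with moderated variances and a variance trend (limma 3.58.1, R 4.3.3) were fitted to log2(FPKM + 1) of all 32 samples, or of the sham and the 14, 21 and 28 d samples for the late comparison. Rises and falls needed an adjusted p under 0.05 (unadjusted in the late comparison) and 1.5-fold. Ratios were tested by exact permutation, and Python 3.11.15 served the other steps. The fits were tested on simulated data with 200 planted 2-fold changes. At 3 d 147 (73.5%) were recovered, with 1 false call, and in the late comparison 156 (78%), with 16 false calls. Some 2-fold changes can therefore be missed. The genes named were the 10 members, Trim63 and Fbxo32, up to 2 rising and 2 falling genes with the largest changes per list at 3 and 28 d, and the 3 genes most like each member; Foxo1 and Foxo3 were named after their values were seen. The members and lists were chosen with earlier results of these data known.

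Alternatives covered the pseudocount, the filter, TPM, median-ratio, quantile and mitochondria-free scaling, the variance trend, the fold threshold, the samples in the fit, limma-voom on recovered fragments and leaving out each sample. Sequences came from RefSeq, and no windows were used for Trim55 and Fbxo32.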

Additional observations from a re-analysis of the deposited data

Results flagged for a closer look

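In groups of 4, a sample was listed when its gap to the nearest other sample as a share of the group's range exceeded Dixon's 95% critical value. This picked out 7 of 96 groups, where chance gives about 1 in 20 (4.8 groups). Trim54 had 1 high 0 d sample, at 190.1 FPKM against 157.4 to 159.7 FPKM in the others, and 1 low 28 d sample, at 106.9 FPKM against 127.8 to 131.8 FPKM. Fbxo30 had 1 high 7 d sample, at 19.7 FPKM against 13.1 to 14.2 FPKM. Fbxo21 had 1 low 21 d sample, at 5.48 FPKM against 6.15 to 6.29 FPKM. Nedd4 had 1 high 0 d sample, at 48.6 FPKM against 43.2 to 43.8 FPKM. Cblb had 1 low 28 d sample, at 1.56 FPKM against 2.18 to 2.25 FPKM. Trim63 had 1 high 3 d sample, at 1590.1 FPKM against 1114 to 1184 FPKM, the sample with the lowest r to its own group. The high 0 d samples of Trim54 and Nedd4 were the same sample (replicate 3), as were the low 28 d samples of Trim54 and Cblb (replicate 3). The rises of Nedd4 from 7 d on, of Fbxo30 at 7 d and of Trim63 at 3 d passed the test without these samples.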

How the results depend on the processing

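The rises of Fbxo30 on all 7 days and of Fbxo31 at 1 and 3 d passed the test under every alternative run. Median-ratio scaling and voom took 1.5-fold from each rise of Nedd4, from Fbxo21 at 28 d and from Fbxo40. Quantile normalization and the total without mitochondrial genes took it from some of these rises. No paired analysis was possible because the columns carry no replicate number of the labels. Depth limits Fbxo32 and Trim32 most, with 56 and 132 fragments in their lowest samples. Fitting only the 8 samples compared, all 32 samples for the late comparison, dropping the variance trend, no filter or an FPKM minimum of 1 changed no member's call. Changes of members are log2 fold changes, and the cause of the differences between settings was not tested beyond what each scaling does by construction.

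With median-ratio scaling, 1 member was lower at 1 d, 1 was higher and 2 lower at 5 d, at 7 d and at 28 d, and 1 was higher and 1 lower at 14 d, at 21 d and in the late comparison. Limma-voom on fragments gave the same counts except for 2 lower at 14 d, and 2 members lower between 3 and 5 d. Quantile normalization gave 1 member lower at 1, 3, 5, 14 and 21 d and late, 2 lower at 7 d, and 1 higher at 5 d. It gave 3 higher at 1 d and 2 at 3, 7, 21 and 28 d. Fbxo40 at 3 d (0.40) and 21 d (0.52), Nedd4 at 7 d (0.42) and Fbxo21 at 28 d (0.30) were then short of 1.5-fold. Without mitochondrial genes in the total, 1 was higher at 5 d and 1 lower at 7 d, at 21 d and late. That setting left 2 higher at 3, 7 and 28 d, with Fbxo40 at 3 d (0.56), Nedd4 at 7 d (0.56) and Fbxo21 at 28 d (0.51) short of 1.5-fold. TPM gave 4 higher at 1 d, 14 d and late, 0 lower at 28 d (Fbxo31 at -0.56), and 1 higher from 3 to 5 d. With no fold threshold, 6 were higher at 1, 3, 14 and 28 d and late and 5 at 5, 7 and 21 d, while 2 were lower at 3, 5, 7, 14 and 28 d and 1 at 1 and 21 d and late. Between neighbouring days it gave 4 higher and 1 lower from 1 to 3 d, 2 and 2 from 3 to 5 d, and 1 lower from 7 to 14 d and from 21 to 28 d. A pseudocount of 0.1 gave 1 member higher and 2 lower from 3 to 5 d, and ratios to Fbxo32 differed for 3 members at 3 d and 2 at 28 d, in place of 6 and 5. With no filter, 5 neighbours in the order of levels differed.

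For the other lists, the SCF core had 0 higher at 28 d with median-ratio, quantile, mitochondria-free scaling and voom, but 5 at 3 d and 4 at 28 d with TPM, and 5 and 6 with no fold threshold. Of the other ligases, 6 were higher at 3 d under those 4 settings, and at 28 d 2, or 3 without mitochondrial genes; TPM gave 16 and 13, and no fold threshold 19 and 17, with 13 lower at 3 d. E2 enzymes higher at 3 d numbered 1 with median-ratio, quantile and voom, 2 without mitochondrial genes and 12 with no fold threshold, and at 28 d 0 (median-ratio), 1 (quantile), 4 (TPM) and 10 (no fold threshold). E2 enzymes lower at 28 d numbered 5 with median-ratio, voom and no fold threshold and 4 with quantile, and TPM gave 0 lower at 3 d. Substrates lower at 3 d numbered 2 with median-ratio, quantile, voom and no fold threshold and 1 with a pseudocount of 0.1, those higher at 28 d 1 with median-ratio and 2 with voom or without mitochondrial genes, and TPM gave 1 lower at 28 d. Upstream factors higher at 28 d numbered 3 with median-ratio, quantile and voom and 8 with no fold threshold, with 2 lower in each, and an FPKM minimum of 1 left 1 lower at 3 d and 0 at 28 d.

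Leaving out 1 sample at a time gave 1 to 2 members higher at 5 d (1 without 5 d replicate 2), 0 to 1 lower at 7 d (1 without 0 d replicate 1 or 7 d replicate 2), 0 to 1 E2 enzymes lower at 3 d, 1 to 2 higher at 28 d, 0 to 1 substrates lower at 3 d, and 5 to 9 neighbours in the order of levels (5 without 0 d replicate 2).

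Directions turned as follows for fold changes, where either value had an adjusted p under 0.05. With median-ratio scaling, quantile normalization and voom, in that order, Trim32 had -0.046, -0.036 and -0.043 at 5 d, -0.024, -0.017 and -0.022 at 7 d, -0.032, -0.020 and -0.029 at 28 d, and -0.035, -0.022 and -0.024 late. In the same order Traf6 had -0.13, -0.12 and -0.15 at 5 d, -0.088, -0.087 and -0.11 at 7 d, -0.064, -0.070 and -0.078 at 14 d, -0.055, -0.054 and -0.067 at 21 d, and -0.040, -0.043 and -0.035 late, and at 28 d -0.0014 and -0.0067 under the first pair. Cblb had -0.25, -0.24 and -0.37 at 5 d and -0.18, -0.19 and -0.25 late, and Trim55 -0.36, -0.25 and -0.37 at 28 d. Trim54 had -0.31 at 5 d and -0.28 at 14 d with median-ratio scaling and -0.30 and -0.28 with voom, Fbxo40 -0.16 and -0.15 at 28 d with the same pair, and Fbxo21 -0.25 and -0.24 at 5 d with median-ratio scaling and quantile normalization. TPM turned Trim55 at 14 d (0.0090). Ratios to Fbxo32 at 28 d turned for Fbxo40 with a pseudocount of 0.1 (-0.12) and, with median-ratio scaling, for Trim32 (-0.044), Fbxo40 (-0.17) and Traf6 (-0.013). Leaving out 1 sample turned ratios near 0. At 28 d the ratio of Fbxo31 to Trim63 ran from -0.026 to 0.13, and ratios to Fbxo32 from -0.12 to 0.17 (Fbxo40), -0.049 to 0.23 (Trim32), -0.028 to 0.23 (Traf6) and -0.16 to 0.013 (Cblb), and the ratio of Fbxo21 to Fbxo32 at 3 d from -0.23 to 0.15.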
